A study of Mus musculus with 40 samples.

Results

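The RNase P and RNase MRP genes and the ribosomal RNA precursor were examined in mouse embryonic fibroblasts (MEFs) that carried or lacked Sall2, a zinc finger transcription factor, with and without doxorubicin, a DNA-damaging drug. The members were taken by symbol from the count table. They are the 2 RNA components, Rmrp and Rpph1, the precursor Rn45s, and the protein subunits Pop1, Pop4, Pop5, Rpp25, Rpp30, Rpp38 and Rpp40, which makes 10 of the 24062 genes in the table. The cells were primary MEFs of 13.5-day embryos at passage 3, all labelled as a mixed C57BL/6J-129P2OlaHsd strain. The knockout allele was made in 129P2 embryonic stem cells. The libraries came from RNA that was depleted of ribosomal RNA and then enriched for messenger RNA. The control groups were 1 wild-type (WT), 1 heterozygous (Het) and 3 knockout (KO) libraries, each from 1 embryo. The doxorubicin groups received 1 µM for 16 h and held 1 WT, 1 Het and 2 KO libraries. A 3rd KO doxorubicin column equalled the 2nd in 24062 of 24062 genes, which is less than the sampling noise, so both were counted as 1 sample and 9 libraries were used. The column names do not settle which of embryos KO 2 and KO 3 that shared column came from. The difference between KO 1 and the paired embryo correlated between treatments at r = 0.48 over genes for KO 2 and 0.22 for KO 3. KO 3 control also differs from KO 1 and KO 2 control in scaling and interferon genes, as given below, so these values do not settle the pairing. The shared column is called KO 2 doxorubicin here.

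RNase P is the ribonucleoprotein that cuts the 5′ leader from precursor tRNAs. Rpph1 is its RNA component. RNase MRP is a related particle built on the RNA Rmrp, it shares most of its proteins with RNase P, and it takes part in the cleavage of the ribosomal RNA precursor in the nucleolus. Both RNAs are made by RNA polymerase III and neither carries a poly(A) tail, while the 45S precursor, listed as Rn45s, is made by RNA polymerase I. Libraries made by ribosomal RNA depletion and poly(A) selection retain such RNAs only in part.

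The RNA components are shown because both overlap other annotated exons. In GENCODE on GRCm38, the Rmrp transcript lies at chr4:43492788-43493058 on the minus strand and is 271 bases long. Capitals mark the 124 bases covered by an exon of a Ccdc107 transcript on the opposite strand. The Rpph1 transcript lies at chr14:50807449-50807767 on the minus strand and is 319 bases long, of which the first 300 are given (chr14:50807468-50807767). Capitals mark the 233 bases that an exon of a Ccnb1ip1 transcript covers on the same strand.
Rmrp: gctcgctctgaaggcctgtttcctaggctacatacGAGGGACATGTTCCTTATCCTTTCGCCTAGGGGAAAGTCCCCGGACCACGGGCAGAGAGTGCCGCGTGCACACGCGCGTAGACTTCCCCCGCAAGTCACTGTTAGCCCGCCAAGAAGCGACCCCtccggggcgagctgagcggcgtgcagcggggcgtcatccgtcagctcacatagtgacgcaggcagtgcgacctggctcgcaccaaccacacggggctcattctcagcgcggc
Rpph1: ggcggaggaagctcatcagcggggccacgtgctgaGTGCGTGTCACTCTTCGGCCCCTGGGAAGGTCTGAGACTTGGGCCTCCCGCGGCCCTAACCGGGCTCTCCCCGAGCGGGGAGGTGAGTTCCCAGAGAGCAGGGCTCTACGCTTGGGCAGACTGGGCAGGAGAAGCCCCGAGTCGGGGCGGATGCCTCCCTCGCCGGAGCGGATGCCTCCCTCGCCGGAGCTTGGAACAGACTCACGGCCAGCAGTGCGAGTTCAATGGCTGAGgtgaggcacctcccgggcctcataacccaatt
In RefSeq, Ccdc107 and Parp2 lie outside both RNAs, and other RefSeq genes were not searched for there. The study counted reads with an mm10 gene file from the iGenomes repository. Whether that file holds these GENCODE exons was not tested. Ccnb1ip1 had 0 counts in WT control, 2 in Het control, and 0 in both WT and Het doxorubicin. KO 1, KO 2 and KO 3 control held 2, 2 and 0 Ccnb1ip1 counts, and KO 1 and KO 2 doxorubicin held 9 and 2. Rpph1 had 1 and 2 counts in those treated KO libraries. Whether Rpph1 reads were assigned to Ccnb1ip1 was not tested. The strand setting of the counting is not given in the sources used here, and how many Rpph1 or Rmrp reads were discarded as ambiguous was not tested.

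Both RNA genes lie head-to-head with a protein-coding gene, and the stretches between them are shown because the same sequence faces both genes of each pair. Ccdc107 starts 280 bases upstream of Rmrp, and Parp2, which encodes a DNA repair ADP-ribosyltransferase, starts 125 bases upstream of Rpph1. The stretches come from the RefSeq promoter windows of Ccdc107 and Parp2 (GRCm38.p6), read on the minus strand towards the RNA gene, at chr4:43493115-43493339 and chr14:50807772-50807896. The bases of the Rmrp gap nearest to Rmrp lie outside the window. Capitals mark the letters ATTTGCAT and TATAA on either strand.
Upstream of Rmrp: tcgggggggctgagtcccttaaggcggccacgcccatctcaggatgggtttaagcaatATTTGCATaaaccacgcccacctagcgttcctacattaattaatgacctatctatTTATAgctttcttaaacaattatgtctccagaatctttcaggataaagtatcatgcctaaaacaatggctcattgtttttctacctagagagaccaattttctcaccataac
Upstream of Rpph1: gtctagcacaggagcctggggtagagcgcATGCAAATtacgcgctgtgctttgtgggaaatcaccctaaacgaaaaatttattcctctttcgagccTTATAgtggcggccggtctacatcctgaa
Both windows held each motif 1 time. Of 32851 mouse promoter windows of the same length, 1.74% held ATTTGCAT and 24.9% held TATAA on either strand.

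Library totals ran from 15560728 to 24122414 counts, and 3 counts corresponded to 0.123 to 0.168 CPM (read counts scaled to the library total with TMM factors). The libraries Het control, KO 3 control and Het doxorubicin stood apart, with scaling factors of 1.22 to 1.33 against 0.82 to 1.01 in the other 6. In these 3 libraries 9 of 10 interferon-response genes were higher than in any of the other 6, with summed levels of 1443 to 2373 CPM against 45.7 to 418 CPM. The same held for 3 of 5 macrophage markers (398 to 594 CPM against 63.5 to 147 CPM, none at 0). It also held for 2 of 2 muscle markers (2.42 to 9.50 against 0.205 to 0.747 CPM). Of 2 glial markers it held for 1 (9.74 to 32.3 against 2.69 to 6.16 CPM). By contrast, 6 of 9 fibroblast markers were lower (14298 to 20407 CPM against 42871 to 89688 CPM). Of 4 endothelial and 4 epithelial markers, 0 separated these libraries. Sall2 itself was at 37.6 CPM in WT control, 24.0 in Het control and 19.0 to 24.2 in the KO controls, and at 9.35, 7.94 and 3.72 to 4.23 CPM after doxorubicin. The deleted part of the gene is not given in the sources used here, so this level checks the labels only in part. In bulk RNA, fewer cells of a type and less RNA per cell cannot be told apart.

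Rn45s ranged more widely over the libraries than Rmrp and the 7 protein subunits, and both its genotypes and its treatments overlapped. It took 0.0481% of all counts in WT control (95% Wilson interval 0.0472 to 0.0490%), 0.723% in Het control, and 0.0387%, 3.16% and 0.772% in KO 1, KO 2 and KO 3 control. After doxorubicin it took 0.0848% in WT, 2.56% in Het, 0.153% in KO 1 and 0.110% in KO 2. The intervals cover counting error only, and every library held at least 9167 Rn45s counts. The highest value was KO 2 control, followed by Het doxorubicin, and the KO controls lay on both sides of the WT control. On the CPM scale the range was 471 to 38360, which is 81.5-fold. Ranks 2 to 4, at 5783 to 19316 CPM, were the 3 libraries that stood apart, and the other 5 lay at 1664 CPM or less. KO 2 control, the highest, is not one of the 3 libraries that stood apart, and its interferon and macrophage sums were 47.3 and 84.2 CPM. How completely ribosomal RNA was depleted in each library was not measured, so depletion and precursor abundance cannot be told apart.

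Rmrp was highest in the same 4 libraries as Rn45s and in the same order: KO 2 control, then the 3 libraries that stood apart (6.14 to 13.1 CPM), with the other 5 at 2.48 CPM or less. The part of that library state in either RNA was not tested. Its counts were 33 in WT control, 150 in Het control and 22, 1407 and 237 in KO 1, KO 2 and KO 3 control. After doxorubicin they were 45 in WT, 270 in Het, 31 in KO 1 and 54 in KO 2. KO 2 control was again the highest and KO 1 control the lowest, and the genotypes and the treatments overlapped. In CPM the range was 1.13 to 79.0, or 69.9-fold. Counted per 1000 Rn45s reads of the same library, Rmrp lay between 0.677 in Het doxorubicin and 2.84 in WT control.

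**Figure D1:**
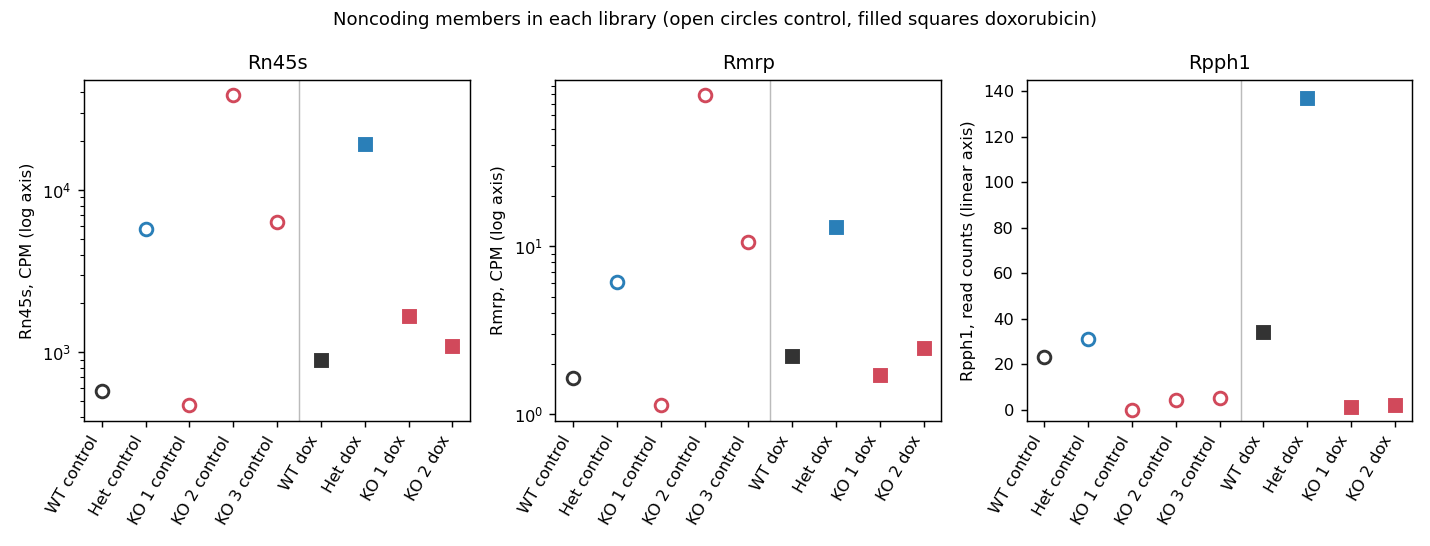
Level of the 3 noncoding members in each of the 9 libraries: Rn45s and Rmrp in CPM on log axes and Rpph1 as read counts on a linear axis (1 point per library, open circles control, filled squares doxorubicin, black WT, blue Het, red KO). KO 2 control is highest for Rn45s and Rmrp, whereas for Rpph1 the 5 KO libraries lie at 0 to 5 counts and the WT and Het libraries at 23 to 137.

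Among 13863 genes with a mean of at least 1 CPM, Rn45s was the gene whose log2 CPM was most like that of Rmrp, with Pearson r = 0.95 over the 9 libraries, and Rmrp was likewise the gene most like Rn45s. The next genes were Slc25a35 (r = 0.89) and Mblac1 (r = 0.82) for Rmrp, followed by Maz and Zc3h6. For Rn45s they were Ppp1r26 (r = 0.86) and Slc25a35 (r = 0.82), followed by Sfxn5 and Dnajc28. The 9 libraries share embryos and 3 of them stood apart, so these values are a description.

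**Figure D2:**
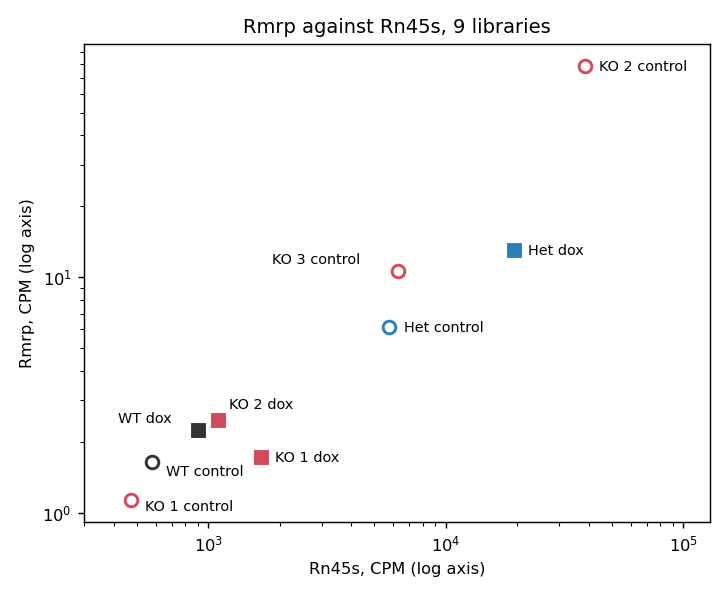
Rmrp against Rn45s in the 9 libraries, both in CPM on log axes (1 point per library, open circles control, filled squares doxorubicin, black WT, blue Het, red KO). The values run from KO 1 control, at 471 CPM of Rn45s and 1.13 CPM of Rmrp, to KO 2 control, at 38360 and 79.0 CPM.

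Neither RNA differed between genotypes beyond this spread in the main fits. The study names both among the genes that differed between WT and KO, and reports qPCR for them in immortalized MEFs. In control cells the KO against WT log2 fold change was 4.21 ± 2.64 (SE) for Rmrp and 4.72 ± 3.18 for Rn45s, both with an adjusted p of 1.00 (edgeR quasi-likelihood test, Benjamini-Hochberg over 14470 genes). That comparison called 0 genes in all, so 0% of the genes and 0 of the 10 members passed an adjusted p (false discovery rate, FDR) of 0.01, while 10 genes had an unadjusted p under 0.05 and DESeq2 likewise called 0. Without KO 2 control the values were 1.88 for Rmrp and 2.60 for Rn45s. Without KO 1 control Rmrp was called at 4.78 (adjusted p = 0.00021), in a fit that set its spread at 0.822 from the trend over genes against 8.48 from its own libraries. After doxorubicin the KO against WT values were -0.09 ± 0.43 for Rmrp and 0.61 ± 0.30 for Rn45s (adjusted p = 1.00 for both).

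Doxorubicin gave opposite directions in different embryos for these RNAs. Within embryos Rn45s was 1.56-fold higher after the drug in WT, 3.34-fold higher in Het and 3.53-fold higher in KO 1, but 0.0285 times its control level in KO 2. Rmrp was 1.36-fold, 2.13-fold and 1.53-fold higher in the same 3 embryos and 0.0314 times its control level in KO 2. If the shared doxorubicin column is set against KO 3 control instead, the ratios are 0.173 for Rn45s and 0.233 for Rmrp. Over all genotypes the log2 fold change was -1.27 ± 1.69 for Rn45s (edgeR adjusted p = 0.55) and -1.68 ± 1.56 for Rmrp (adjusted p = 0.39). Without KO 2 control these became -0.08 and -0.36, and with the embryo as a block Rn45s turned to 0.41 ± 1.08.

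Rpph1 was the member that separated the genotypes. Its counts were 23 in WT control and 31 in Het control against 0, 4 and 5 in the 3 KO controls. After doxorubicin they were 34 in WT and 137 in Het against 1 and 2 in KO. All 5 KO libraries lay below all 4 WT and Het libraries, in both treatments. In CPM, 23 of 16656 tested genes, or 0.138%, had their 5 KO libraries below the WT and Het libraries, and Rpph1 was the only one of the 10 members to do so. The KO 1 control count of 0 allows up to 0.154 CPM at 3 counts.

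In doxorubicin-treated cells the WT to KO ratio of summed, scaled Rpph1 counts was 22.4, with an exact 95% counting interval of 7.05 to 114 from 34 against 3 counts. The fitted log2 fold change was -4.38 ± 0.78 (SE, adjusted p = 1.88e-05, edgeR quasi-likelihood test over 15256 genes). This value depends on the prior count at such low levels. Its SE was back-calculated from the fold change and the F statistic of the test, so it is approximate. Of those genes 30, or 0.197%, were called, 12 of them lower in KO (0.0787%), and Rpph1 was the one member among them. With 1 WT and 2 KO libraries the fit had 1 residual degree of freedom and set the spread of Rpph1 from the trend over all genes, at 1.12 against 0.168 from its own libraries. DESeq2 gave -4.51 with a wider SE of 1.45, an unadjusted p of 0.00195 and an adjusted p of 1.00. An edgeR fit with all 9 libraries gave -4.39 with an unadjusted p of 0.0125 and an adjusted p of 1.00, so the call rested on the 3-library fit. Robust edgeR and limma voom fits, added after the data were seen, kept the call. They reuse the same 3 libraries with 1 residual degree of freedom, so they are not independent of it.

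In control cells the direction was the same, with a WT to KO ratio of 7.58 (interval 3.38 to 18.6, from 23 against 9 counts) and a log2 fold change of -2.85 ± 1.46, which did not pass (edgeR adjusted p = 1.00, lower in 3 of 3 KO libraries). Across both treatments the slope on Sall2 dose, with KO at 0 and WT at 1, was 4.24 ± 1.82 on the log2 scale (edgeR unadjusted p = 0.0445, adjusted p = 1.00). That fit took control and doxorubicin libraries of the same embryo as independent, which they are not. WT and Het came from 1 embryo each, so its p and SE do not measure the spread between embryos. The slope called 0 of 16656 genes, or 0%, and 48 genes had an unadjusted p under 0.05, while DESeq2 called 2 genes and no member. The levels did not follow the dose evenly. Het was at 8.41 times the KO level in control cells (interval 3.91 to 20.1) and 87.9 times after doxorubicin (29.5 to 432). After doxorubicin Het was also 3.92 times WT (2.68 to 5.89), and Het doxorubicin is one of the 3 libraries that stood apart. In KO 2 control, where Rn45s and Rmrp were highest, Rpph1 had 4 counts. Doxorubicin against control gave 0.66 ± 0.78 for Rpph1 over all genotypes (edgeR adjusted p = 0.497). Within embryos Rpph1 was 1.48-fold higher after the drug in WT and 5.23-fold higher in Het, and the KO counts were too low for a ratio.

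Rpph1 lies on chromosome 14 at 50807447 to 50807771 (RefSeq, GRCm38.p6), 1503 kb from Sall2. Sequence of the stem cell strain can remain around a targeted allele. Loss of Sall2 and linked 129P2 sequence cannot be told apart in these groups. Of the 23 genes with all KO libraries below the rest, 6 (26.1%) lay on chromosome 14, namely Rpph1, Osgep, Ang, Bmp1, Dgkh and Rarb, while 3.49% of the tested genes with a position did. Its head-to-head neighbour Parp2 overlapped between genotypes in control cells, at 19.0 CPM in WT, 24.5 in Het and 15.4, 17.1 and 30.0 CPM in KO. After doxorubicin both KO libraries, at 3.06 and 2.80 CPM, lay below WT (3.53) and Het (4.89), and the KO against WT value of -0.28 ± 0.38 was not called (edgeR adjusted p = 1.00). The genes most like Rpph1 over the 9 libraries were Lrrc1 and Bmp1 (Pearson r = 0.92 for both), then Pde1c, Prdm10 and G530011O06Rik (r = 0.88, 0.87 and 0.85). All of these except Prdm10 are among the 23 genes above, so the values in part restate the KO split. Rpph1 had 0 to 5 counts in the KO libraries, where its log2 CPM depends on the prior count.

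In the fit over all genotypes 3 of the 10 members passed an FDR of 0.01: Rpp25 rose, and Rpp30 and Rpp40 fell. Of all 16656 genes tested, 40.6% passed, 21.9% higher and 18.7% lower, so the count of members was near the background. For 4 members (Rpp25, Rpp30, Rpp38 and Rpp40) the 5 control and 4 doxorubicin libraries did not overlap in CPM, against 46.4% of all genes tested. Some cell type markers also moved with the drug: 1 of 9 fibroblast markers fell (Pdgfrb), 1 of 5 macrophage markers rose (Cd68) and 1 fell (Csf1r), 1 of 4 endothelial markers rose (Emcn), 1 of 3 tested epithelial markers rose (Epcam) and 1 fell (Krt18), and 1 of 2 glial markers fell (Sox10), while 0 of 2 muscle and 0 of 10 interferon genes passed. The summed levels overlapped between control and doxorubicin libraries in every one of these lists, for example 14298 to 89688 against 20407 to 54372 CPM for fibroblast, 84.2 to 533 against 63.5 to 594 CPM for macrophage and 6.96 to 18.8 against 6.49 to 9.15 CPM for epithelial markers. Their part in the members' changes was not tested.

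Rpp25, which encodes an RNA-binding subunit that pairs with Rpp20 (Pop7), had the largest change. Its counts were 9 in WT control, 10 in Het control and 15, 14 and 25 in the KO controls, and 475, 334, 457 and 567 in WT, Het, KO 1 and KO 2 after doxorubicin. Every treated library was above every control library. The log2 fold change was 5.11 ± 0.25 (SE, edgeR adjusted p = 4.54e-06), or 34.5-fold. Within embryos it was 52.7-fold in WT, 39.5-fold in Het, 33.0-fold in KO 1 and 33.1-fold in KO 2. Against KO 3 control the shared column would give 23.2-fold.

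Rpp40, another protein subunit of the holoenzyme, went the other way. The WT control library held 125 counts, the Het control 165, and the KO controls 102, 117 and 194, while the treated WT, Het, KO 1 and KO 2 libraries held 21, 25, 20 and 24. Levels were 5.24 to 8.70 CPM in the controls and 1.04 to 1.21 CPM after the drug, with no overlap. It fell by 2.57 ± 0.26 on the log2 scale (edgeR adjusted p = 8.77e-05). The treated libraries kept 0.168 to 0.212 of the control level in the 4 embryos, with the shared column paired to KO 2. Paired to KO 3 control, that column would keep 0.127 of it.

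Rpp30 and Rpp38 were lower after doxorubicin by smaller amounts. Rpp30, a core subunit, was at 12.4 to 20.0 CPM in the 5 control libraries and 7.65 to 9.60 CPM in the 4 treated ones, and it fell by 0.83 ± 0.21 on the log2 scale (edgeR adjusted p = 0.00836). That call was lost in 8 of the 9 fits that each left out 1 library, with adjusted p up to 0.0386. Rpp38, a member of the L7Ae family of RNA-binding proteins, was at 5.55 to 9.69 CPM in the controls and 2.56 to 4.70 CPM after the drug. Its log2 fold change of -0.99 ± 0.27 did not pass (adjusted p = 0.0135). With the embryo as a block it did, at -0.85 ± 0.19 (adjusted p = 0.00384).

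The 3 Pop subunits did not pass the FDR of 0.01. Pop1, the largest protein of the particles, was lower in each of the 4 embryos, at 0.712 times its control level in WT, 0.711 in Het, 0.723 in KO 1 and 0.761 in KO 2. Its log2 fold change was -0.38 ± 0.15 (edgeR adjusted p = 0.0601), and with the embryo as a block it was -0.46 ± 0.11 (adjusted p = 0.00477). Against KO 3 control the shared doxorubicin column would give a ratio of 1.01 instead, and with that pairing the blocked value did not pass (-0.36, adjusted p = 0.121). Pop4, which encodes Rpp29, was 1.13-fold to 1.52-fold higher in the 4 embryos (log2 fold change 0.35 ± 0.13, adjusted p = 0.0473). Pop5, another core subunit, was 1.58-fold, 1.66-fold and 1.59-fold higher in WT, KO 1 and KO 2 and 0.912 times its control level in Het (0.22 ± 0.28, adjusted p = 0.52). Against KO 3 control the shared column would give a Pop5 ratio of 0.684. Without the 3 libraries that stood apart, which left 6, doxorubicin called 7 of the 10 members, these 3 genes and Rpp38 among them. It then called 10281 of 15442 genes.

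**Figure D3:**
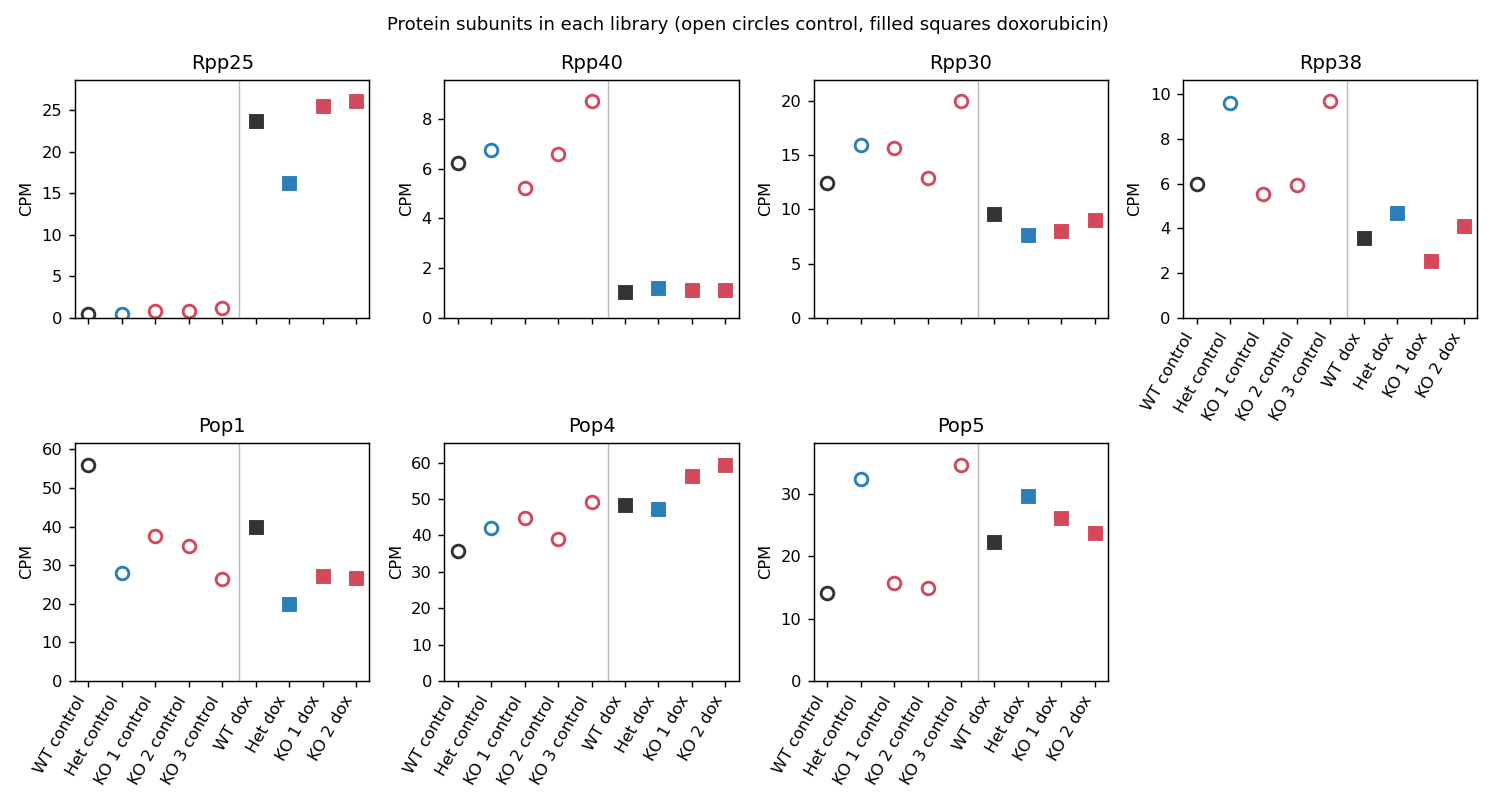
Level of the 7 protein subunits in each of the 9 libraries, in CPM on linear axes that start at 0 (1 point per library, open circles control, filled squares doxorubicin, black WT, blue Het, red KO). For Rpp25, Rpp40, Rpp30 and Rpp38 the 5 control and 4 doxorubicin libraries do not overlap, while for Pop1, Pop4 and Pop5 they do.

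**Figure D4:**
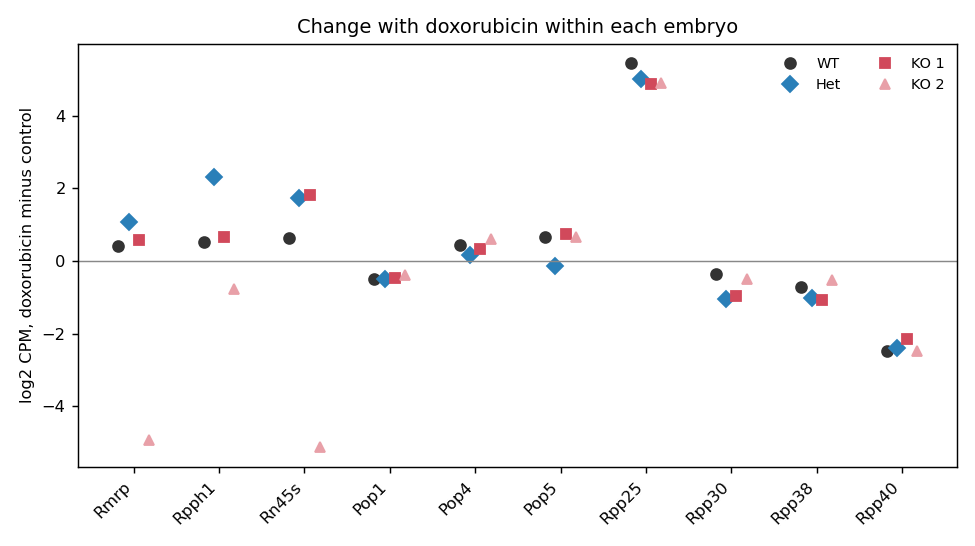
Difference in log2 CPM (prior count 2) between doxorubicin and control within each of 4 embryos, for the 10 members (1 point per embryo). Rpp25 is the highest and Rpp40 the lowest protein subunit in all 4 embryos, while Rn45s and Rmrp are above 0 in WT, Het and KO 1 and at -5.13 and -4.94 in KO 2.

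Genotype separated no protein subunit at the FDR of 0.01. In control cells the 7 log2 fold changes of KO against WT ran from -0.74 (Pop1) to 1.02, and after doxorubicin from -0.58 (Pop1) to 0.25. Pop1 had the smallest adjusted p of the 7 after doxorubicin. Its level was 56.1 CPM in WT control, 27.9 in Het control and 37.5, 35.0 and 26.3 in the KO controls, while the treated libraries were at 39.9 (WT), 19.8 (Het), 27.1 (KO 1) and 26.6 (KO 2). WT was the highest library in both treatments, and Het lay within or below the KO libraries. The fitted differences of KO from WT were -0.74 ± 0.33 in control cells (edgeR adjusted p = 1.00, unadjusted p = 0.0767) and -0.58 ± 0.20 after doxorubicin (adjusted p = 0.614, unadjusted p = 0.00402). Removing 1 factor of unwanted variation with RUVg, followed by the exact test of edgeR, gave -0.67 for Pop1 in control cells and called it. The control genes of that step were those outside the 5000 lowest p of this same comparison. The factor was removed from the counts of the same libraries before the test, so the spread used there leaves that step out. Pop5 was at 32.4 CPM in Het control and 34.7 in KO 3 control against 14.1 to 15.7 in the other 3 controls, and those 2 are libraries that stood apart.

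Compared per kilobase of annotated exon, Pop4 had the highest median level of the 9 members with a GENCODE length, at 16.6 CPM per kb, followed by Pop5 (10.3), Rmrp (8.82), Pop1 (7.34) and Rpp38 (5.32). Rpp30 (2.98), Rpp40 (0.801), Rpp25 (0.788) and Rpph1 (0.704) were the lowest. Lengths are the union of all annotated exons of a gene. Rmrp and Rpph1 carry no poly(A) tail and are retained only in part, so their places cannot be read as abundance. The median is over 9 libraries of which 5 are KO: in WT control Rpph1 was at 3.59 CPM per kb, against 2.98 for Rpp30, 0.952 for Rpp40 and 0.315 for Rpp25. Neighbours in this order overlapped over the 9 libraries except Rpp30 (1.83 to 4.78) and Rpp40 (0.160 to 1.33), and Rmrp ran from 4.02 to 281 CPM per kb. After doxorubicin the mean per-kilobase level of Rpp25 in KO cells was 18.1, near that of Pop4 (20.3). No GENCODE length was matched to Rn45s.

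The interaction, which asks whether doxorubicin changed KO cells differently from WT cells, called 0 of 15905 genes (0%) and none of the 10 members, while 41 genes had an unadjusted p under 0.05 and DESeq2 called 0. The log2 values were -4.29 ± 2.91 for Rmrp, -4.09 ± 3.01 for Rn45s and -1.51 ± 1.86 for Rpph1 (edgeR adjusted p = 1.00 for each). With the embryo as a block, Rmrp (-4.08, adjusted p = 3.49e-15) and Rn45s (-2.30, adjusted p = 1.74e-07) were called. That fit left 1 residual degree of freedom and took the spread wholly from the trend over genes, at 0.946 for Rmrp and 0.784 for Rn45s, whereas their own libraries gave 105.5 and 333.8. The KO 1 and KO 2 embryos moved in opposite directions, and the p-values do not use that spread. With the shared column taken as embryo 3, neither was called (-1.31 for Rmrp, adjusted p = 1.00 for both).

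Counts in the lists that follow stand beside 18.7% of all tested genes called lower and 21.9% called higher with doxorubicin. Of the 4 other RNase P and MRP subunits, 2 fell and none rose: Pop7, which encodes the Rpp25 partner Rpp20, by 1.37 ± 0.18 on the log2 scale, and Rpp25l, a paralogue of Rpp25, by 1.06 ± 0.21 (edgeR adjusted p = 0.000333 and 0.00295). The median of the 4 was -1.21, against 0.02 over all genes and -0.61 over the 10 members. Rpp14 was the one other subunit called between genotypes. Treated libraries held 467 (WT), 305 (Het), 88 (KO 1) and 322 (KO 2) Rpp14 counts, and its KO against WT value was -1.23 ± 0.24 (adjusted p = 0.000364). In CPM, KO 1 was at 4.90, while KO 2 and Het were both at 14.8 and WT at 23.2. The call came from the 3-library fit, the fit of all 9 libraries called 0 genes, and in control cells the value was 0.22 ± 0.57.

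**Figure D5:**
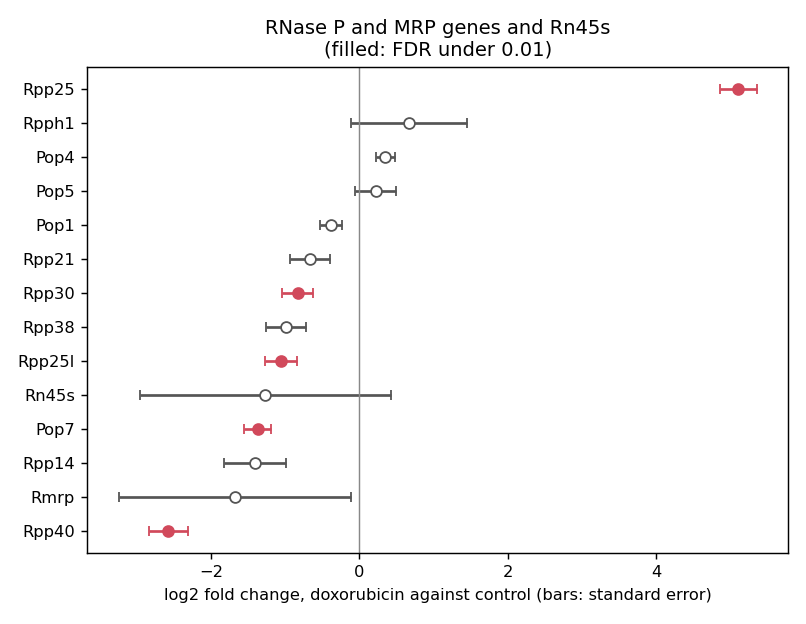
Log2 fold change of doxorubicin against control over all genotypes for the 10 members and the 4 other RNase P and MRP subunits (points, filled where they passed an FDR of 0.01). Bars are 1 standard error, back-calculated from the fold change and the F statistic. Rpp25 stands alone at 5.11, Rpp40 is lowest at -2.57, and Rmrp and Rn45s carry the widest bars.

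In the mitochondrial RNase P, a protein enzyme without an RNA component, 0 of 3 tested genes passed, and Trmt10c had the largest value (-0.60). Among genes for tRNA 3′ end formation and splicing, Elac1, a tRNA 3′ endonuclease, fell by 2.66 ± 0.24 and Tsen15 by 1.38 ± 0.23 on the log2 scale, while Tsen34 rose by 0.90 ± 0.21 (edgeR adjusted p = 5.51e-05, 0.00119 and 0.00658). Of 11 factors that act at promoters of the kind Rmrp and Rpph1 have, 2 fell, a share near the 18.7% of all genes: both are subunits of the SNAPc complex: Snapc3 by 1.42 ± 0.23 and Snapc1 by 1.26 ± 0.27.

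Against 18.7% of all genes lower and 21.9% higher, 3 of 7 RNA polymerase I factors fell and none rose, led by Taf1d (by 2.08 ± 0.48), Ttf1 (by 1.58 ± 0.25) and Taf1b (by 1.30 ± 0.21). Of 29 genes of pre-rRNA processing 12 fell and 1 rose. Those that fell included Nob1, the endonuclease of the last step of 18S maturation (by 2.14 ± 0.15), Dkc1, the pseudouridine synthase of box H/ACA particles (by 1.89 ± 0.17), and Nop58, a core protein of box C/D particles (by 1.81 ± 0.17). Rrp9, a U3 particle protein, rose by 1.92 ± 0.12 and was at 30.7 to 33.2 CPM in the 5 controls and 111 to 129 CPM in the 4 treated libraries. Parp2 fell by 2.62 ± 0.26, whereas Ccdc107 did not pass (0.47 ± 0.20). The median of the 29 processing genes was -0.66 and that of the 7 polymerase I factors -1.29.

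Other RNAs without a poly(A) tail were too low to compare: 3 of 15 listed genes passed the filter under doxorubicin and none was called. The largest value was that of Vaultrc5, a vault RNA (3.53 ± 1.00, edgeR adjusted p = 0.0155). Terc, the telomerase RNA, chosen here after its values were seen, had 0 counts in WT control, 33 in Het control and 1, 5 and 22 in the KO controls, then 7 (WT), 38 (Het), 5 (KO 1) and 10 (KO 2) after doxorubicin. Its 3 highest counts were in the 3 libraries that stood apart, and KO 2 control, the highest in Rmrp, was not among them. Lars2, the mitochondrial leucyl-tRNA synthetase gene, was the 1 gene found of 7 listed as other rRNA loci. It ranged from 1652 to 6010 CPM and did not pass (0.93 ± 0.39). KO 2 control, the highest in Rn45s, was at 5082 CPM, against 1652 to 2879 CPM in the other controls. Whether Lars2 reads came from ribosomal RNA was not tested. Of 6 targets of p53 taken as a check of the drug, 1 fell and none rose: Phlda3 fell by 1.46 ± 0.18 on the log2 scale, while Cdkn1a was at -0.67 ± 0.19 (adjusted p = 0.0145).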

How the data were processed

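Per the labels and the study's methods, libraries were made with the TruSeq Stranded mRNA kit after Ribo-Zero Gold depletion, sequenced in 4 runs each that were merged, aligned to mm10 with HISAT2 (version 2.1.0 in the submitters' processing notes) and counted per gene with HTSeq. The deposited values are raw read counts per gene. The column names give genotype, treatment and embryo, and 1 of 10 columns was a duplicate. Here genes passing filterByExpr were tested with edgeR (version 4.0.16) by the quasi-likelihood test with TMM scaling and Benjamini-Hochberg adjustment at an FDR of 0.01, in 5 comparisons: KO against WT in control and in doxorubicin cells, doxorubicin against control with genotype as a term, the slope on Sall2 dose, and the interaction. Alternatives used DESeq2 (version 1.42.0) and limma (version 3.58.1) in R (version 4.3.3), and the scripts were tested on simulated data. The members, gene lists and tests were chosen with earlier results of these data known. All 10 members passed the filter in every comparison except one alternative, doxorubicin in KO libraries only, where 9 did. The genes named from each list were those past the FDR with the largest folds (at most 4), or the largest fold where none passed. One gene that the rule names, and the count of its list, are not reported here. Levels are CPM on TMM-scaled totals, with 3 counts as the floor. The SE of an edgeR value is its absolute log2 fold change divided by the square root of the F statistic, so it is approximate. Libraries named for the same embryo were taken as paired: the KO 1 minus KO 2 difference correlated between treatments at r = 0.48 over 13864 genes, and at 0.22 when the shared column was set against KO 3. KO 3 control is one of the libraries that stood apart, so these values do not settle the pairing. With 1 WT and 1 Het embryo, p-values measure only the spread between these libraries.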

Additional observations from a re-analysis of the deposited data

How the results depend on the processing

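Of 312 values of named members under alternatives, 272 kept their direction and side of the threshold, 13 lost a call, 21 gained one and 6 reversed. Doxorubicin against control called 3 members of 6760 genes. Leaving out 1 library gave 2 to 6 members and 4322 to 9770 genes, highest without KO 3 control and lowest in genes without KO 2 doxorubicin, and without either WT library 4469 and 4482. DESeq2 and an FDR of 0.05 each gave 5 members, the 3 together with Pop4 and Rpp38. DESeq2 called 8221 of 16656 genes, so its count of members was near the background. KO libraries only gave 1911 genes. With the embryo as a replicate block 5 members were called, Pop1 and Rpp38 being added, and the block changed no other call of a member in this comparison. The gene totals at the FDR of 0.05 and under the block are not given here, so those counts of members have no background beside them. Without the 3 libraries that stood apart, doxorubicin against control gave 10281 genes and 7 members. Leaving out those libraries, taking the shared column as embryo 3, and the robust and limma voom fits were chosen after seeing the data. Directions that reversed were Rn45s under the block (0.41, and 0.59 with the shared column as embryo 3), Rmrp under the latter (0.030), Rpph1 without Het control or Het doxorubicin (-0.20 and -0.21; up to 1.21 without another library), and Rmrp in KO against WT after doxorubicin without KO 1 (0.15); none of these was called. For KO against WT after doxorubicin (30 genes, 1 member), DESeq2 gave 5 and 0, the fit of all 9 libraries 0 and 0, an FDR of 0.05 46 genes, robust spread 14 and limma voom 16. Leaving out either KO library gave 0 genes and 0 members in a fit of all groups, where the lone sample is assumed to vary like the rest. For KO against WT in control cells (0 genes), RUVg gave 179 genes and 1 member, Pop1, and leaving out 1 library gave 0 to 47 genes and 0 to 1 member (Rmrp, without KO 1; 41 genes and no member without KO 2). The RUVg calls came from counts changed before the test, with control genes picked from the same comparison. The slope called 2 genes with DESeq2 and 3 without the 3 libraries. The interaction called 8 genes and 2 members with the replicate block, the same 8 and 2 with robust spread, 4 and 1 (Rmrp) with limma voom, and 2 genes and 0 members with the shared column as embryo 3; these fits had 1 residual degree of freedom. No blocked fit was possible for the slope or for KO against WT, because embryo is nested in genotype. Counts of 0 to 5 limit Rpph1 in the KO libraries.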
